A study of Homo sapiens with 14 samples.

Results

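The replication-dependent histone genes are the clustered genes that supply the core histones H2A, H2B, H3 and H4 and the linker histone H1 while DNA is copied. They were taken as every row of the 6 deposited count tables whose gene symbol begins with HIST1H, HIST2H, HIST3H or HIST4H, which gave 89 of 55075 rows. By the symbols, 8 rows were H1 genes, 22 H2A, 27 H2B, 16 H3 and 16 H4, pseudogenes included, and 66 of the 89 carried the prefix HIST1. The cells were 2 human T cell leukemia lines grown in suspension, CUTLL1 and CEM, infected with a retrovirus that carried a short hairpin RNA against JMJD3 (the gene KDM6B), against UTX (the gene KDM6A) or, as the control, against Renilla, a luciferase. JMJD3 and UTX are histone demethylases that act on lysine 27 of histone H3. CUTLL1 had 3 shJMJD3, 2 shUTX and 3 shRenilla samples, and CEM had 2 of each. All groups, controls included, were infected. Libraries were made either from poly(A)-selected RNA or from RNA cleared of ribosomal RNA, and the labels do not tell which sample received which. Nothing in the labels says whether the replicates came from separate cultures, so they may be technical. The p-values below come from pooled columns. They rest on how hairpin differences vary between the 2 lines, and not on the spread between replicates.

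The files hold 1 column of raw read counts per hairpin and line, with the replicates of a group pooled, so no spread between replicates could be measured and no test was possible within a line. Levels are given as CPM, the count scaled to the column total, and are not divided by gene length, so they compare columns and not genes. CUTLL1 shRenilla had 2 columns, a larger of 258014046 counts set beside shJMJD3 and a smaller of 144394369 set beside shUTX. The larger held at least the count of the smaller in all 55075 genes, and the difference of the 2 is called the remainder. Other totals lay between 70280185 and 174301733 counts. As a check of the labels, the KDM6B level under shJMJD3 was 52.2 CPM in CEM (control 206), and 10.9 in CUTLL1, where the larger column had 18.8, the smaller 21.5 and the remainder 15.3. The KDM6A level under shUTX was 51.5 CPM in CEM (control 136) and 19.3 in CUTLL1, where the larger column had 35.8, the smaller 43.0 and the remainder 26.5. The 7 T cell genes (CD3D, CD3E, CD3G, CD2, CD5, CD7 and LCK) summed to between 2443 and 3453 CPM over the 7 columns, while 4 myeloid genes stayed at or below 0.88. The 4 B cell genes reached 75 CPM in CEM shRenilla and 35.3 in CEM shJMJD3. Their part in the results was not tested.

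These genes are transcribed in S phase, together and from clusters, the largest of which lies on chromosome 6. Their mRNAs mostly end in a conserved stem-loop in place of a poly(A) tail. SLBP binds the stem-loop, and the precursor RNA is cut after it by a machinery that includes the U7 small nuclear RNA. Selection on oligo(dT) therefore misses most of them, and depletion of ribosomal RNA keeps them. A few members are known to be made as polyadenylated mRNAs as well, and 5 such genes (HIST1H1C, HIST1H2AC, HIST1H2BD, HIST1H2BK and HIST2H2BE) were followed as a list. Replacement histones, such as H3.3 and H2A.Z, are encoded by separate genes, many of them with introns, and mostly as mRNAs with poly(A) tails.

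The stem-loop is shown first because it is what sets these mRNAs apart in an RNA selection. A 16-base pattern of the histone stem-loop was found in transcripts of 32 of 71 protein-coding member symbols in GENCODE release 29, and in 8 of 19597 other protein-coding genes, among them the replacement histone gene H2AFX. Transcript models without these letters may end before the stem-loop. The most frequent form was shared by 18 member rows. Capitals mark the stem-loop, with up to 5 bases on each side, as DNA letters 5′ to 3′.
HIST1H3H: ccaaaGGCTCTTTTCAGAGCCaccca
HIST1H2BC: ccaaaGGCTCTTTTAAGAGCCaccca
HIST2H2BE: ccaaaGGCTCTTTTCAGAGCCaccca
HIST1H4H: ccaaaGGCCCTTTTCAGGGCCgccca
HIST2H4A: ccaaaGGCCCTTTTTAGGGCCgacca
The H3 and H2B genes shown share a GGCTCT arm, and both H4 genes have GGCCCT. HIST2H2BE holds the most frequent form, although it is on the polyadenylated list.

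Of all counts in CUTLL1 shRenilla, histone genes made up 4.5% in the larger column, 5.32% in the smaller one and 3.47% in what remains, against 0.0252% in the CEM control. With shJMJD3 their share was 5.98% in CUTLL1 and 0.0191% in CEM. With shUTX it was 5.62% and 0.0307%. The larger CUTLL1 control column thus held 179 times the CEM control's share. CUTLL1 and CEM columns do not overlap in this share. Cell line and RNA selection cannot be told apart here, and in bulk RNA fewer cells in S phase and less RNA per cell cannot be told apart either.

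**Figure D1:**
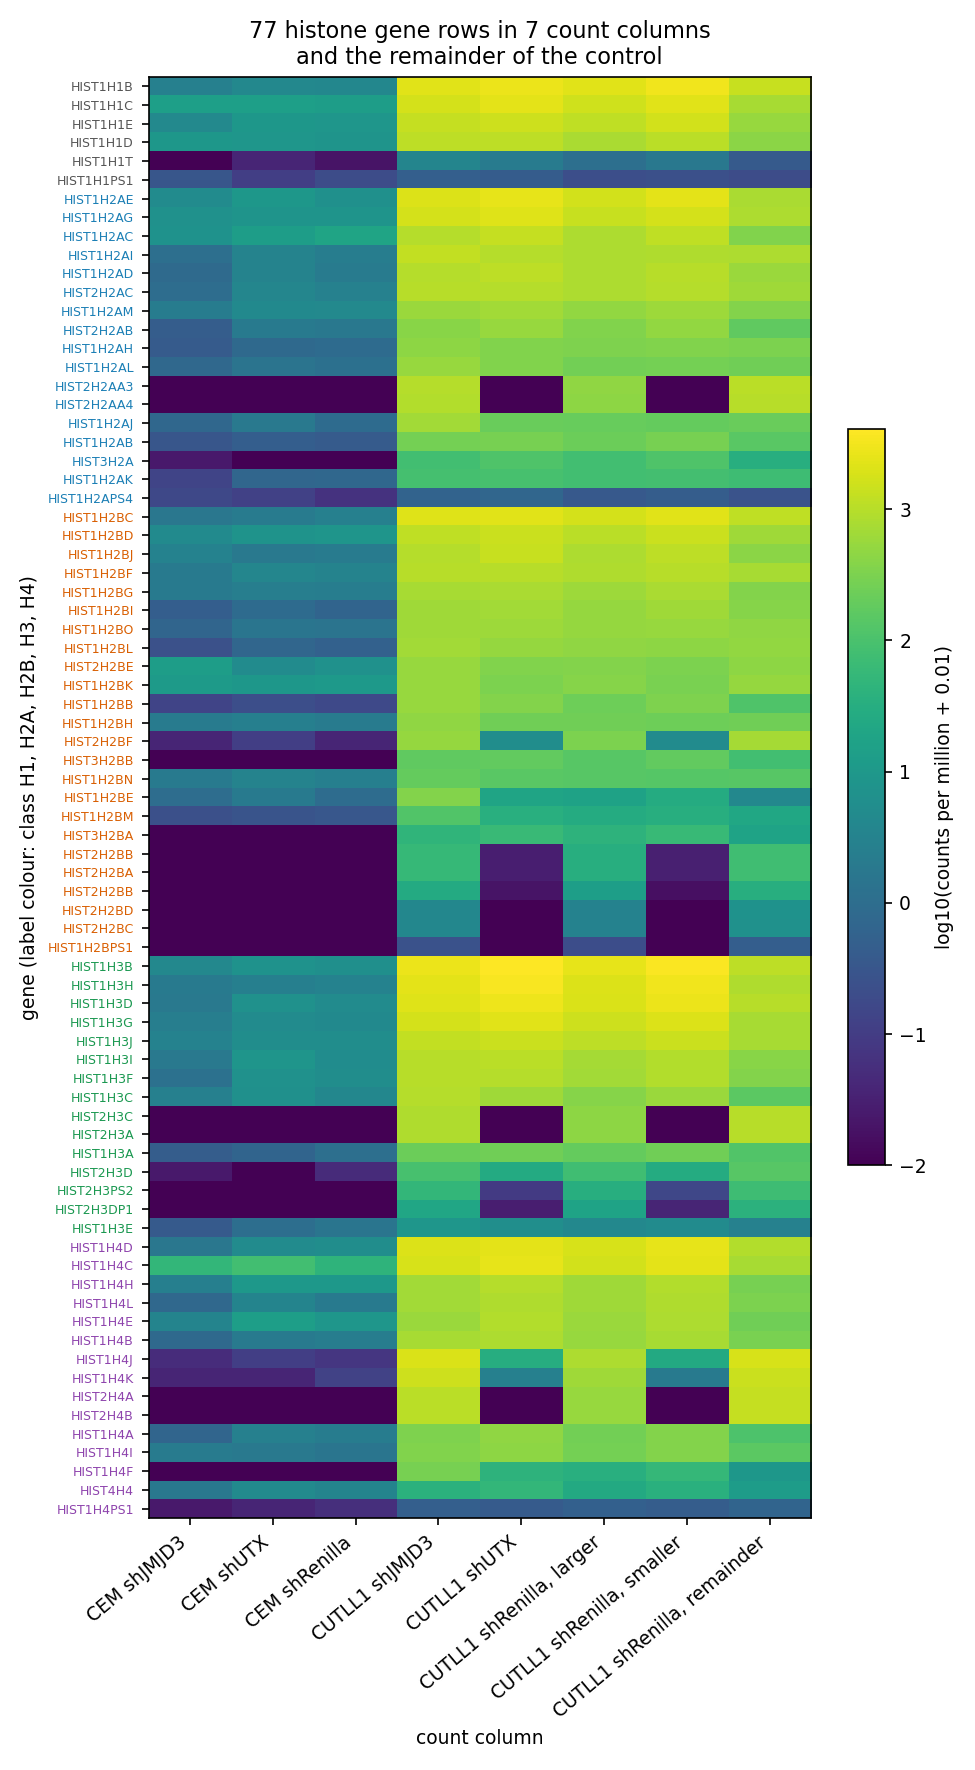
Levels of the 77 member rows with at least 50 counts in any column (rows, label colour by class), as log10 of CPM plus 0.01, in the 7 count columns and the remainder of the CUTLL1 control. All 77 stand lower in the CEM control than in the larger CUTLL1 control column. HIST2H4A, HIST2H4B, HIST2H2AA3, HIST2H2AA4, HIST2H3A and HIST2H3C have counts only in CUTLL1 shJMJD3, the larger control column and the remainder.

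HIST1H3B, an H3.1 gene, stood at 2799 CPM in CUTLL1 shJMJD3, 4039 in shUTX, 2561 in the larger and 3707 in the smaller control column. In CEM it stood at 4.20 with shJMJD3, 7.26 with shUTX and 6.12 with shRenilla. HIST1H2BC, an H2B gene, had 2150, 2269, 1772 and 2241 CPM in the same CUTLL1 columns and 1.65, 2.15 and 2.78 in CEM. HIST1H4C, an H4 gene, had 1877, 2462, 1641 and 2347 CPM in CUTLL1 and 52.7, 79.2 and 44.2 in CEM, where it took between 17.5% and 27.6% of all histone counts. Of the linker histone genes, HIST1H1B had 2304 CPM in the larger CUTLL1 control column and 4.01 in the CEM control. Each of these 4 genes was higher in every CUTLL1 column than in any CEM column. They were picked among the most abundant members, and how many of all genes separate in this way was not counted. The 12 members left out of all ratios never reached 50 counts, and the highest of them had 43. They include 7 pseudogenes and the testis genes HIST1H2AA and HIST1H2BA.

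The class shares of the histone counts are given for the control columns first. H3 genes took 27.1% in the larger CUTLL1 control column and 16.7% in the CEM control. H4 genes took 20.0% and 31.9%, and H2B genes 19.3% and 17.7%. With shJMJD3 in CEM the share of H3 was 10.6%, against 16.6% with shUTX, while that of H2B was 23.5%, against 14.3%. These shares depend on a few genes, since HIST1H4C alone held more than any class but H4 in CEM with shJMJD3.

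Between the control columns, 77 members had at least 50 counts in either, and 76 of these were at least 2-fold higher in CUTLL1, beside 27.1% of all 20648 genes considered. None was at least 2-fold lower, beside 21% of all genes. Ratios between columns were scaled by TMM, which removes the typical shift of all genes, and carry 95% exact binomial intervals that cover counting error only. On column totals each log2 ratio of this comparison would be 0.35 lower. The members' median log2 ratio was 8.36 and that of all genes 0.07. The exception was the pseudogene HIST1H1PS1 at 0.48 (-0.26 to 1.32). The next lowest were the H3 gene HIST1H3E at 1.78 (1.55 to 2.04) and the H2A pseudogene HIST1H2APS4 at 2.74 (1.82 to 4.48). At the other end HIST2H4A, with 0 counts in the CEM control, was at least 24754-fold higher when 3 counts are taken as the floor. Its copy HIST2H4B was at least 24739-fold and HIST2H2AA3 at least 20634-fold higher by the same floor.

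The log2 ratios between the lines ran from 5.63 to 7.37 over the 5 genes of the polyadenylated list, with a median of 6.11, beside a median of 8.57 over the other 72 members, which include genes with 0 counts in the CEM control. Members off the list included lower ratios, among them HIST4H4 at 3.22 and HIST1H2BE at 4.49, and the lists were not compared by a test. HIST1H2BK stood at 395 CPM in the larger CUTLL1 control column and 10.2 in the CEM control, a log2 ratio of 5.63 (5.54 to 5.72). HIST1H2AC had 805 and 18.4, a ratio of 5.81 (5.74 to 5.87). HIST2H2BE had 371 and 6.86, a ratio of 6.11. Together the list took 22.6% of the histone counts in the CEM control and 9.44% in the larger CUTLL1 control. In CEM its share was 26.8% with shJMJD3 and 16.1% with shUTX, above the 7.77% to 10.3% of the CUTLL1 columns. HIST1H4C, which was not on the list, had a ratio of 5.57 (5.52 to 5.61). Only 25.9% of the 50-base words of HIST1H2BK are found in no other gene, a measure explained below.

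Other RNAs without a poly(A) tail followed the same division. RN7SK, RN7SL1, RMRP, RPPH1 and TERC, which stand in 6 rows, had a median log2 ratio of 9.29 between the controls, and all 6 rows were at least 2-fold higher in CUTLL1. RMRP, the RNA of a ribonuclease, stood at 6297 CPM in the larger CUTLL1 control column and 33.9 in the CEM control. The 11 replacement histone genes had a median of -0.22, with 2 at least 2-fold higher and 3 lower, beside 27.1% and 21% of all genes. H3F3B, an H3.3 gene, had 276 CPM in the larger CUTLL1 control column and 597 in the CEM control. Mitochondrially encoded genes took 2.79% to 4.17% of the CEM columns and 0.0686% to 0.189% of the CUTLL1 columns. Their part in the histone difference was not tested.

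Within CUTLL1, the parts of the control differed in which histone genes they counted. The H4 genes HIST1H4J and HIST1H4K encode the same protein from the same coding sequence. HIST1H4J had 1983 CPM with shJMJD3, 30.9 with shUTX, 25.7 in the smaller control column and 1819 in the remainder. HIST1H4K had 1533, 2.70, 1.99 and 1440. HIST2H4A had 1081 and 1268 CPM with shJMJD3 and in the remainder and 0 counts in the other 2, as did HIST2H4B with 1080 and 1267. The H2A pair HIST2H2AA3 and HIST2H2AA4 and the H3 pair HIST2H3A and HIST2H3C were likewise high in both of these columns and had 0 counts in shUTX and the smaller column. In the larger control column, which contains the remainder, HIST2H4A stood at 558 CPM.

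The start of the H4 coding sequence shows how alike such copies are and how other H4 genes differ. The first 60 of 312 coding bases are given, with capitals where a base differs from HIST1H4J.
HIST1H4J: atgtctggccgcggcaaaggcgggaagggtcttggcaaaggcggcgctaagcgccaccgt
HIST1H4K: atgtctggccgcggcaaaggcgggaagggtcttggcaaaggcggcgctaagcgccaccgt
HIST1H4L: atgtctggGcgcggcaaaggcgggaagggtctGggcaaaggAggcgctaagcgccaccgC
HIST1H4C: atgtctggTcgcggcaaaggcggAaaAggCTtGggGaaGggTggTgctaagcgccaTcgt
HIST2H4A: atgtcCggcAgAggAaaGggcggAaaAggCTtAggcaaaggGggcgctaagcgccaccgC
HIST2H4B: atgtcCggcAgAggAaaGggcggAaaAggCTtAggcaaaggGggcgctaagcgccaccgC
HIST1H4K differed from HIST1H4J at 0 of 312 bases, HIST1H4L at 44, HIST1H4C at 61, and HIST2H4A and HIST2H4B at 47 each. The reads were 50 bases long, so a read inside the shared stretch of HIST1H4J and HIST1H4K has no single place. HIST1H4L and HIST1H4C, which differ from both, stood at 859 and 2462 CPM with shUTX and 871 and 2347 in the smaller column.

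To describe this over all members, each gene's transcripts were cut into 50-base words, and the share of words found in no other gene was counted. It was at least 90% in 67 members, between 10% and 90% in 15, and under 10% in 7, with a median of 99.4%. The 7 members under 10% summed to 2.70 CPM in shUTX and 2.00 in the smaller control column, and to 7297 in shJMJD3 and 8103 in the remainder. In the remainder, 21 of 76 members stood at least 2-fold above the smaller column, beside 16.6% of 18546 genes, and 18 below it, beside 7.44%. Of the 22 members under 90% that could be compared, 16 were at least 2-fold higher, and of the 54 at 90% or more 5 were. The median log2 ratio was 9.69 for the former and -0.67 for the latter. On column totals these ratios would be 0.53 lower. How reads with several places were counted is not stated in the labels, and its part in the comparisons below was not tested.

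**Figure D2:**
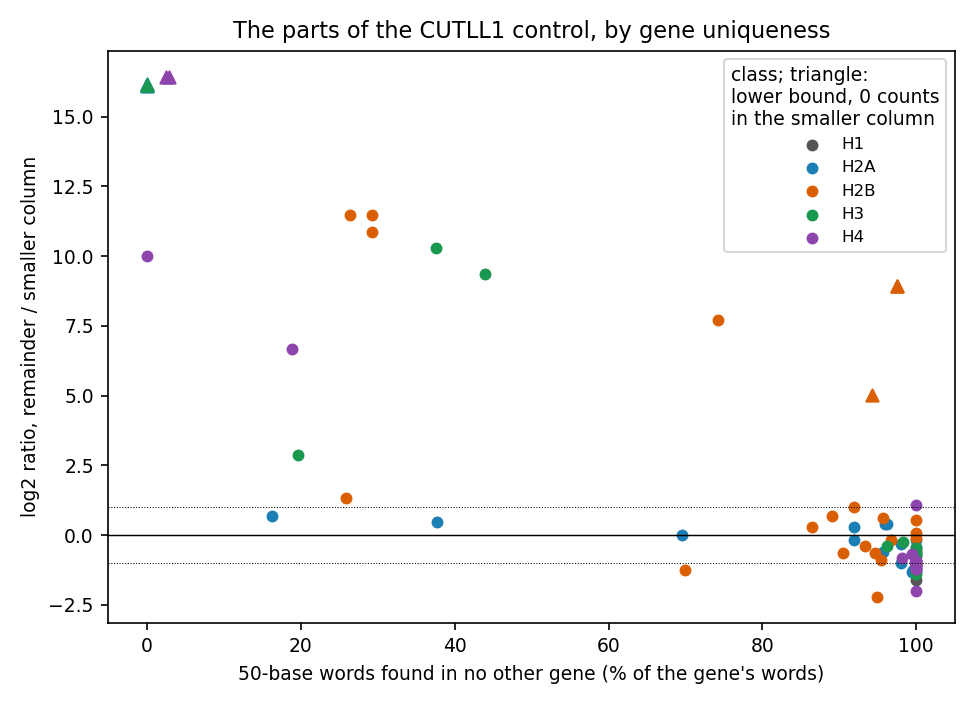
Log2 ratio of the remainder to the smaller column of the CUTLL1 control (vertical axis) against the share of a gene's 50-base words found in no other gene (horizontal axis, percent), 1 point per member, coloured by class. Triangles are lower bounds for genes with 0 counts in the smaller column, and all 7 members under 10% lie above 10.

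Pairs of members also shared their counts. HIST2H4A and HIST2H4B, HIST2H3A and HIST2H3C, HIST2H2BC and HIST2H2BD, and HIST2H2BA and 1 of 2 rows named HIST2H2BB agreed within 1% in both shJMJD3 and the remainder. HIST2H2BC and HIST2H2BD match 1 gene in GENCODE, so their high share of unique words does not describe the build the reads were aligned to. The values of these genes are uncertain one by one. The lowest ratios of the same contrast were in genes with at least 90% unique words. HIST1H2BE stood at 27.6 CPM in the smaller column and 4.12 in the remainder, a log2 ratio of -2.21 (-2.36 to -2.08), HIST1H4F at 54.2 and 9.36, and HIST1H1T, the testis linker histone, at 1.72 and 0.378.

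Against the larger control column, shJMJD3 in CUTLL1 had TMM-scaled log2 ratios above 0 in all 77 members considered. HIST1H1B (-0.01) and HIST1H4PS1 (-0.08) fell below 0 on column totals, and 8 of 77 lay below 0 against the smaller column. Against the remainder other members lay below 0, among them HIST2H3DP1 (-0.99), HIST2H2BF (-0.55) and HIST2H4A (-0.31). Of the 77, 20 were at least 2-fold higher than in the larger column, beside 3.68% of 19772 genes. None was at least 2-fold lower, beside 2.33%. The members' median log2 ratio was 0.48, with quartiles of 0.37 and 1.03, and that of all genes was -0.01. The 6 rows of RNAs without a poly(A) tail had a median of 0.46, from -0.06 (RN7SK) to 0.83 (RMRP). Their part in the histone difference was not tested. On column totals each ratio would be 0.14 lower. Of the 20, 10 had under 90% unique words, all 7 members under 10% among them. Against the remainder these 7 had log2 ratios between -0.31 (HIST2H4B) and 0.01 (HIST1H4K). The 55 members with 90% or more had a median of 0.42 against the larger column, with 10 at least 2-fold higher. Against the smaller column alone the median was 0.52, and against the remainder alone it was 0.92, so its size varied with the part of the control.

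By class the medians were close to each other, at 0.50 for H1, 0.48 for H2A, 0.53 for H2B, 0.44 for H3 and 0.50 for H4. HIST1H1B was nearest to no difference among the abundant genes, at 2286 CPM with shJMJD3 and 2304 in the larger column, a log2 ratio of 0.13 (0.12 to 0.14). HIST1H4E, an H4 gene, had 578 and 566 CPM, a ratio of 0.17 (0.16 to 0.18). The pseudogene HIST1H4PS1 was at 0.06 (-0.35 to 0.46). HIST1H2AE, HIST1H2AG and HIST1H2BD, all abundant in CUTLL1, were at 0.39, 0.53 and 0.28.

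**Figure D3:**
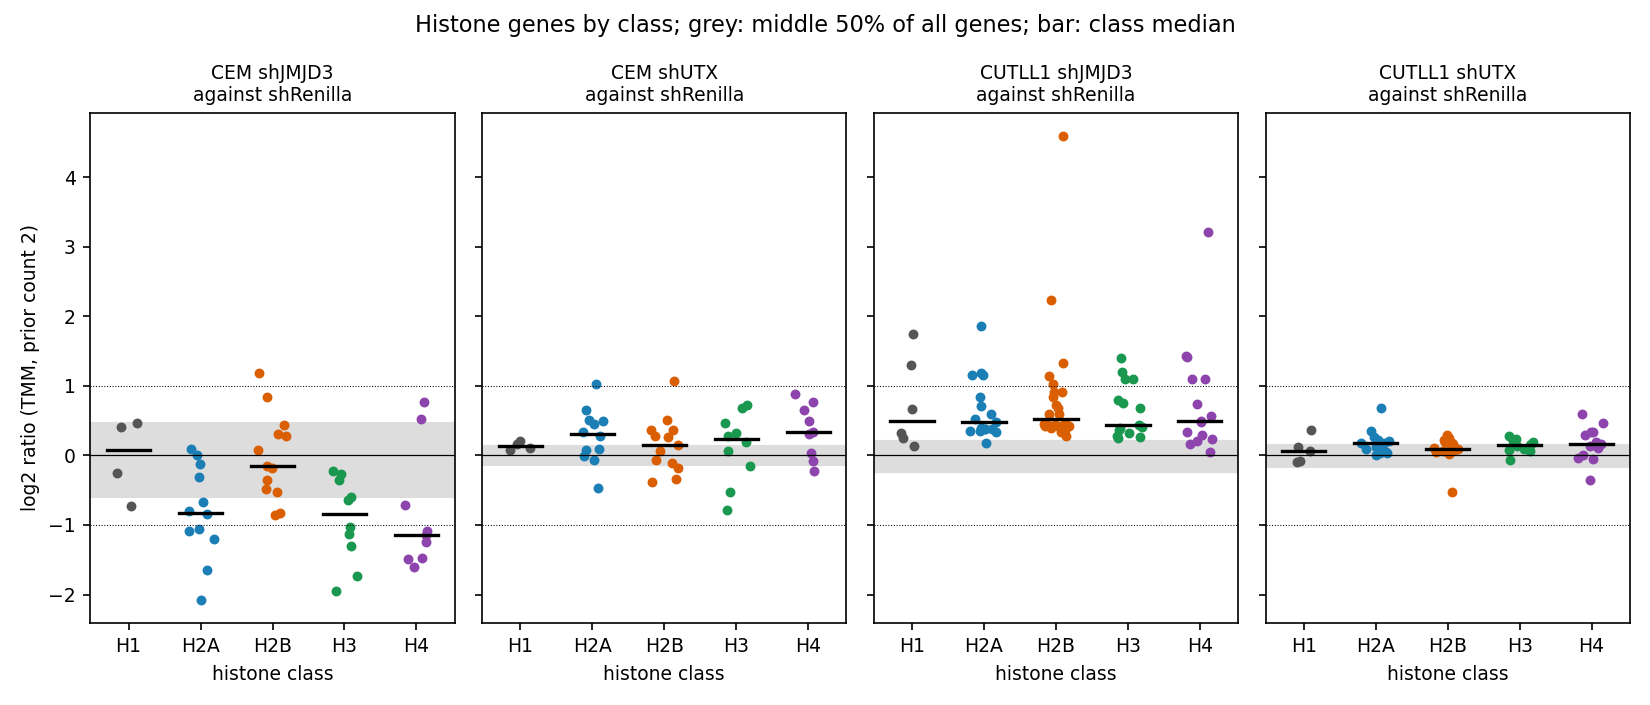
Log2 ratios (TMM, prior count 2) of members with at least 50 counts in either column, by histone class, for both knockdowns against shRenilla in both lines. Points are genes, bars are class medians and the grey band is the middle 50% of all genes. In CUTLL1 shJMJD3, set against the larger control column, all members lie above 0, with HIST1H1B and HIST1H4PS1 below it on column totals. Against the remainder alone, which is not drawn here, HIST2H4A and others lie below 0. In CEM shJMJD3 the H2A, H3 and H4 medians lie between -0.82 and -1.15.

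A smaller set was higher with shJMJD3 than in either part of the control. In 10 of 77 members the ratio was at least 2-fold above both the smaller column and the remainder, beside 2.32% of genes, and in 0 it was 2-fold below both, beside 0.531%. HIST1H2BE, an H2B gene, led them. It stood at 378 CPM with shJMJD3, against 17.3 in the larger column, 27.6 in the smaller, 4.12 in the remainder and 18.7 with shUTX. Its log2 ratio to the larger column was 4.59 (4.55 to 4.64), that is 24.1-fold, and 17.5-fold and 86.6-fold to the 2 parts. In the GENCODE model 1 other gene overlaps it, so reads of either cannot be told apart without the counting rule.

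HIST1H4F, an H4 gene with all its words unique, stood at 288 CPM with shJMJD3 against 34.5 in the larger column, 54.2 in the smaller, 9.36 in the remainder and 41.4 with shUTX. Its log2 ratio to the larger column was 3.21 (3.17 to 3.24). In CEM it had 0 counts in all 3 columns, which allows up to 0.0427 CPM in the shallowest. HIST1H2BM, an H2B gene, had 120 CPM against 28.0, 33.1, 21.6 and 34.6 in the same columns, a ratio of 2.23 (2.20 to 2.27). HIST1H2AJ, its neighbour on chromosome 6, had 658 against 199, 189, 211 and 213, a ratio of 1.87 (1.85 to 1.88), but only 16.3% of its words are unique.

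The other 6 were HIST1H1T, HIST1H3C, HIST1H2BB, HIST1H1PS1, HIST1H3E and HIST1H2AL, with log2 ratios to the larger column between 1.19 and 1.75. HIST1H3C and HIST1H2BB are also neighbours. HIST1H3C had 940 CPM against 579 in the smaller column and 154 in the remainder, and HIST1H2BB 544 against 340 and 113. HIST1H1T and HIST1H1PS1 were low throughout, at 3.47 and 0.488 CPM with shJMJD3. HIST1H4J and HIST1H4K, next to HIST1H2BM in gene order, were high against the smaller column but not against the remainder.

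**Figure D4:**
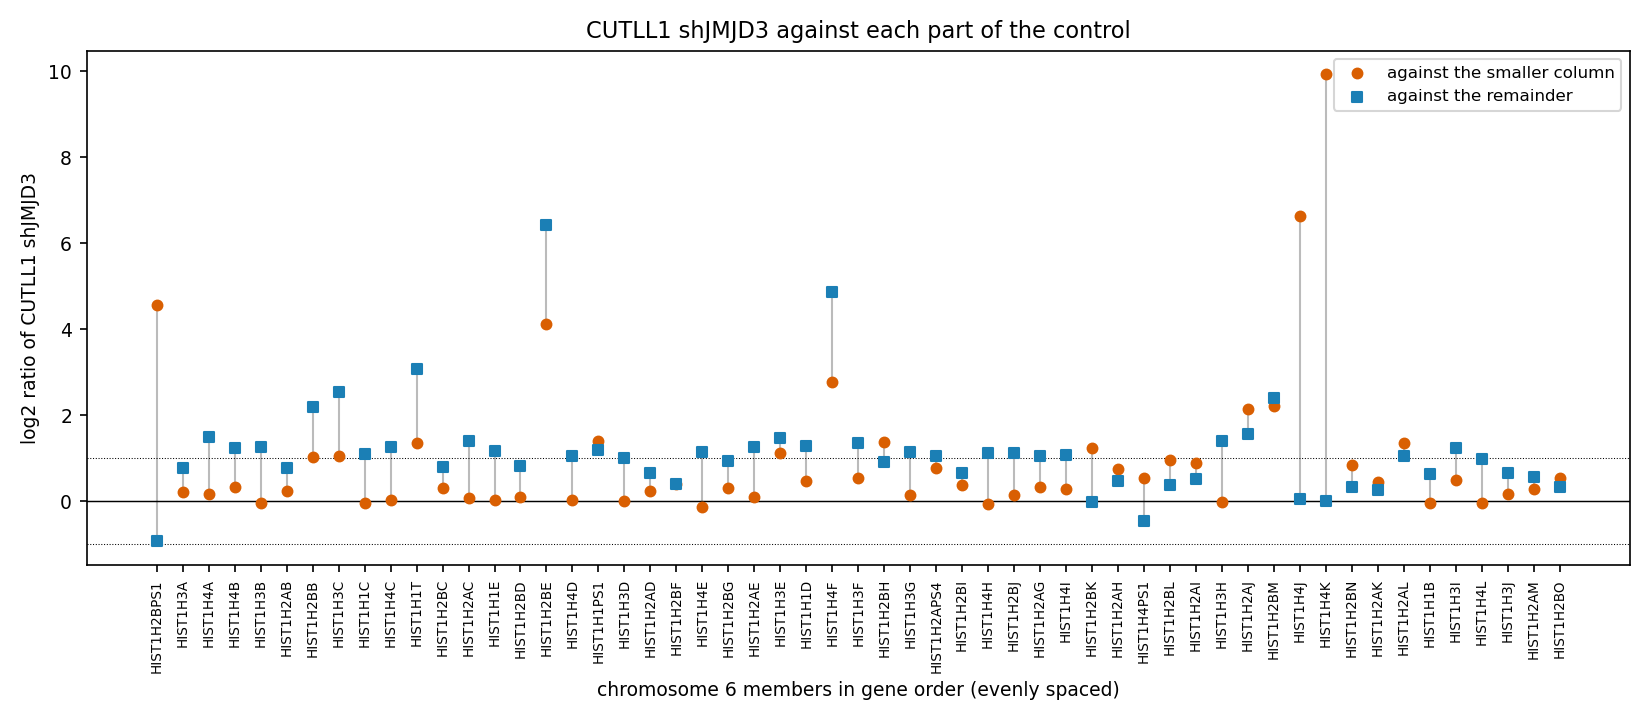
Log2 ratios of CUTLL1 shJMJD3 to the smaller control column (circles) and to the remainder (squares) for the 55 members on chromosome 6 with at least 50 counts, evenly spaced in gene order. HIST1H2BE and HIST1H4F stand above both parts, while HIST1H4J and HIST1H4K stand above the smaller column only; dotted lines mark 2-fold. HIST1H2BPS1 has 0 counts in the smaller column, so its circle depends on the prior count.

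Promoters are shown for the 3 members with the highest ratio of shJMJD3 to the larger control column in CUTLL1 and for HIST2H2BE, which had the highest ratio of shJMJD3 to shRenilla in CEM. Each window runs from 200 bases before to 10 bases after the RefSeq start in GRCh38.p14, on the gene's strand. The windows are chr6:26183561-26183770 on the plus strand, chr6:26240193-26240402 on the plus strand, chr6:27814822-27815031 on the plus strand and chr1:149886673-149886882 on the minus strand. Capitals mark the TATA box letters TATAAA, the box with the letters CCAAT, and the octamer ATTTGCAT, on either strand.
HIST1H2BE promoter: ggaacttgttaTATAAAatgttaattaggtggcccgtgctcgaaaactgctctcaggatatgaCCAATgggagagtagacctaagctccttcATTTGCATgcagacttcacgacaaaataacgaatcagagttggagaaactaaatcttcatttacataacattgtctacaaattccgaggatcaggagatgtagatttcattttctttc
HIST1H4F promoter: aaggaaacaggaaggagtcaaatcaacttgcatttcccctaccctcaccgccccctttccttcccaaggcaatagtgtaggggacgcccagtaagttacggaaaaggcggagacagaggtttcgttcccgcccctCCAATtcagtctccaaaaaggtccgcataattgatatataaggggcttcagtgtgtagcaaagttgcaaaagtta
HIST1H2BM promoter: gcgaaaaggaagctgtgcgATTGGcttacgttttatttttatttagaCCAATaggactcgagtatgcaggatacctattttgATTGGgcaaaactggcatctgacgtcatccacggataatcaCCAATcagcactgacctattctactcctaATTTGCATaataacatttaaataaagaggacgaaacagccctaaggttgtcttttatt
HIST2H2BE promoter: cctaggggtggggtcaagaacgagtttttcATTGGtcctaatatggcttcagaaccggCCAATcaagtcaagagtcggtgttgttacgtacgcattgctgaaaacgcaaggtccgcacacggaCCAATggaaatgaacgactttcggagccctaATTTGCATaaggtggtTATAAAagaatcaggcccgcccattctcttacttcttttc
In the longer RefSeq windows of 300 bases, found for 66 members, CCAAT was in 84.8%, TATAAA in 66.7% and ATTTGCAT in 39.4%, beside 35.7%, 12% and 1.80% of 27305 promoters. The octamer was in 77.8% of H2B and 68.8% of H2A windows and in 0 of 13 H4 windows. The HIST1H2BE window holds each of the 3 once, with TATAAA 189 bases before the start, whereas that of HIST2H2BE lies 30 bases before it. HIST1H4F holds 1 CCAAT and neither of the others. The windows of HIST1H2BM and HIST1H2AJ overlap by 256 of 300 bases, since these genes run in opposite directions from a shared stretch. Matches are letters in a window and not sites in use.

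With shUTX in CUTLL1, the histone genes stayed close to the smaller control column set beside it. Of 62 members 0 were at least 2-fold higher and 0 lower, beside 0.657% and 0.272% of 16886 genes. The members' median log2 ratio was 0.13, beside -0.02 for all genes and 0.35 for the 6 rows of RNAs without a poly(A) tail. The pseudogene HIST1H2APS4 was highest at 0.69 (0.20 to 1.22), followed by HIST4H4 at 0.59 (0.54 to 0.65) and HIST1H4K at 0.47 (0.23 to 0.71). HIST1H2BE was lowest at -0.53 (-0.61 to -0.45), then HIST1H4F at -0.36 (-0.41 to -0.30) and HIST1H1B at -0.10 (-0.10 to -0.09). HIST4H4 had 52.1 CPM with shUTX and 35.4 in the smaller column. The lowest genes depended on the part of the control, since against the remainder HIST1H2BE stood at 1.69 and HIST1H4F at 1.66.

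Set side by side in CUTLL1, shJMJD3 had 24 of 76 members at least 2-fold above shUTX, beside 14.7% of 18287 genes, and 0 below, beside 1.67%. The members' median was 0.35, beside 0.02 for all genes. On column totals each ratio would be 0.33 lower. The highest were HIST2H4A, HIST2H4B and HIST2H2AA3, at least 46199-fold, 46170-fold and 40194-fold, since shUTX had 0 counts of each. Of the 54 members with at least 90% unique words, 7 were at least 2-fold higher and the median was 0.16. HIST1H2BE was at 4.67 (4.60 to 4.73) and HIST1H4F at 3.13 (3.09 to 3.18). The lowest were HIST1H4E at -0.29 (-0.31 to -0.28), HIST1H3H at -0.22 and HIST1H3B at -0.20. This comparison shares the shJMJD3 column with the one above.

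In CEM, shJMJD3 went the other way for many members. Of 48 members with at least 50 counts, 16 were at least 2-fold lower than with shRenilla, beside 14.1% of 16998 genes, and 1 was at least 2-fold higher, beside 11.3%. The members' median log2 ratio was -0.62 and that of all genes -0.06. On column totals each ratio would be 0.27 lower. The remaining 41 members were below 50 counts in both columns. The counts here are small, with 13389 histone counts in all with shJMJD3 and 26258 with shRenilla, so single genes carry wide intervals. The interval, for counting error only, lay below 0 for 31 members and above 0 for 7. The same count was not made over all genes, so it does not set the histone genes apart.

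The H4 genes were lowest as a class, with a median of -1.15 over 9 genes and 6 at least 2-fold lower. HIST1H4H stood at 2.66 CPM with shJMJD3, 9.76 with shUTX and 9.79 with shRenilla, a log2 ratio to shRenilla of -1.60 (-1.84 to -1.38). HIST1H4D had 1.62, 5.07 and 5.48 CPM, a ratio of -1.47 (-1.79 to -1.19). For H3 the median was -0.84, and 5 of 10 genes were at least 2-fold lower. HIST1H3F had 1.20 CPM with shJMJD3, 6.83 with shUTX and 5.62 with shRenilla, a ratio of -1.95 (-2.31 to -1.63). HIST1H3E had 0.370, 1.03 and 1.54, a ratio of -1.73 (-2.44 to -1.18). For H2A it was -0.82, and 5 of 12 genes were lower. HIST1H2AK was the lowest of all members at -2.07 (-3.42 to -1.24), from 9 and 76 counts. In each of these the shJMJD3 column was below both others.

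The 13 H2B genes had a median of -0.15, with 1 at least 2-fold higher and 0 lower, and ran from -0.85 (HIST1H2BL) to 1.18. The 4 H1 genes had a median of 0.08 and ran from -0.73 (HIST1H1E, 4.45 CPM with shJMJD3 and 8.92 with shRenilla) to 0.47 (HIST1H1D). The classes were not compared by a test. HIST2H2BE stood at 12.9 CPM with shJMJD3, 5.14 with shUTX and 6.86 with shRenilla, a log2 ratio to shRenilla of 1.18 (1.04 to 1.33). HIST1H2BJ had 3.12, 1.79 and 2.09 CPM, a ratio of 0.84 (0.57 to 1.12). Of the polyadenylated list, HIST1H1C was at 0.41 (0.29 to 0.52), HIST1H2BK at 0.44 (0.31 to 0.57), HIST1H2BD at -0.52 (-0.71 to -0.34) and HIST1H2AC at -1.09 (-1.23 to -0.95). The list's median was 0.41 and that of the other 43 members -0.67. HIST1H4C was at 0.52 (0.46 to 0.59) and HIST1H4I at 0.77 (0.45 to 1.11), the only H4 genes above 0.

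**Figure D5:**
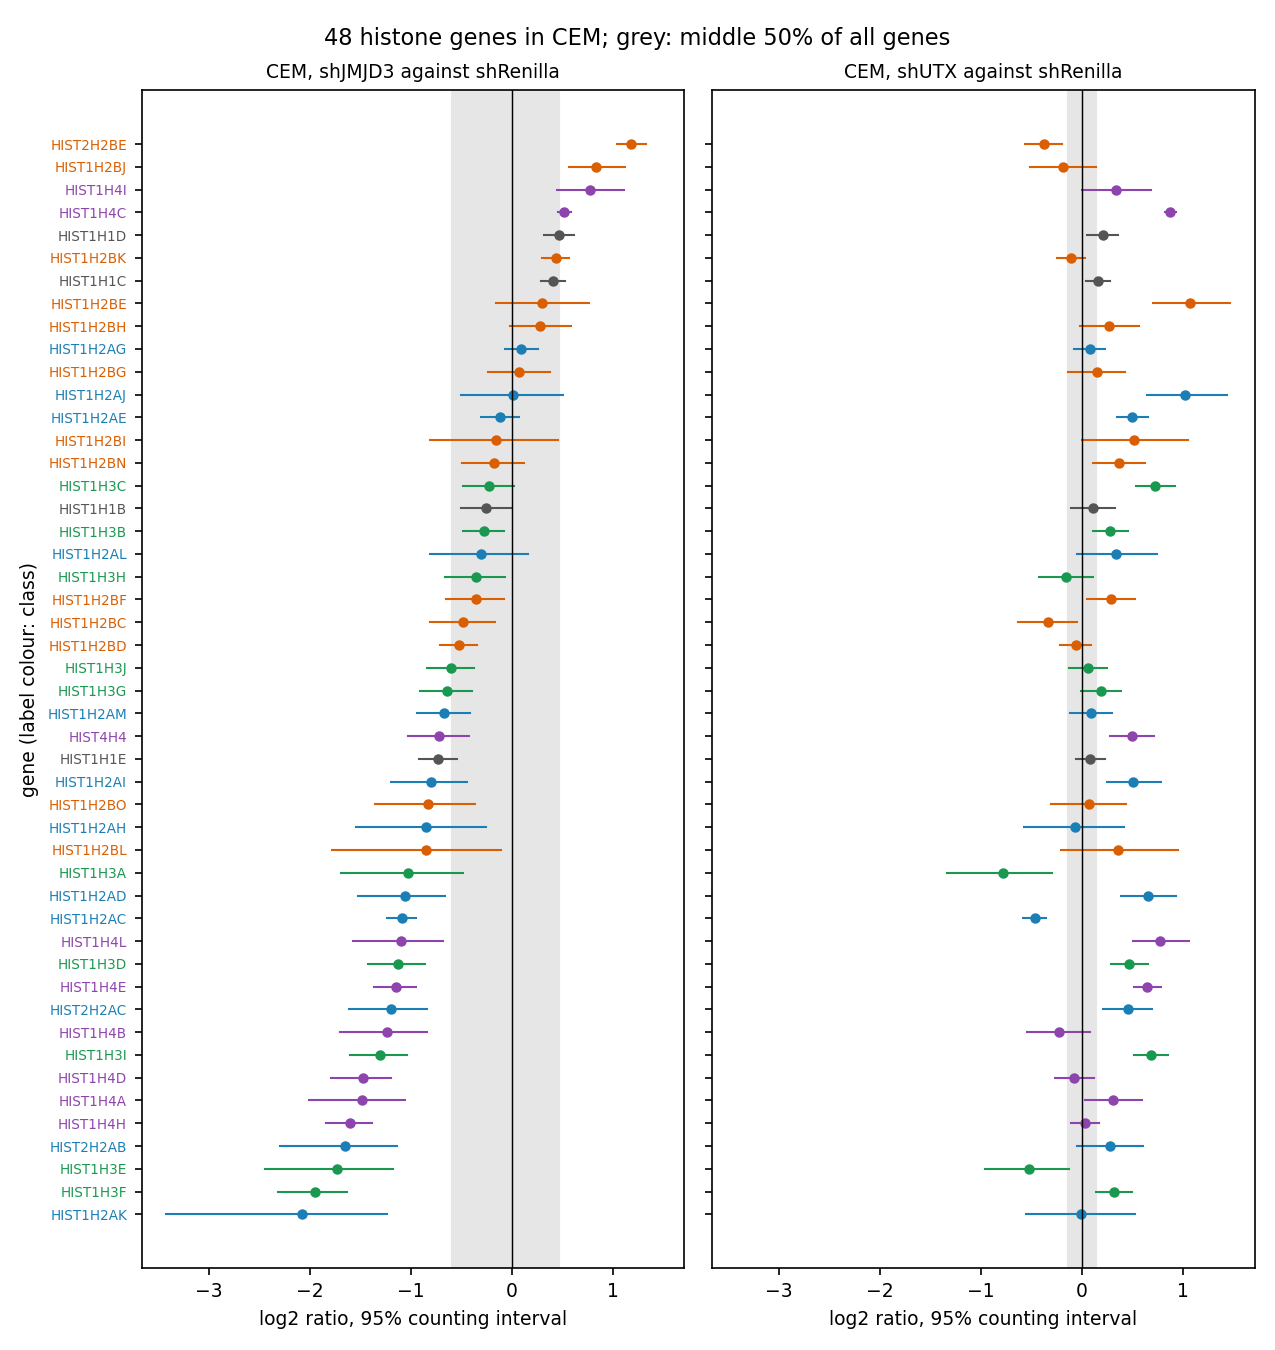
Log2 ratios with 95% counting intervals for the 48 histone genes with at least 50 counts in CEM, for shJMJD3 (left) and shUTX (right) against shRenilla, sorted by the former and coloured by class. The grey band is the middle 50% of all genes. HIST2H2BE is highest on the left at 1.18 and HIST1H2AK lowest at -2.07.

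RNAs without a poly(A) tail were also lower with shJMJD3 in CEM. The median log2 ratio was -0.71 over the 5 rows considered, with RN7SK at 1.54 CPM against 11.2 and RMRP at 9.18 against 33.9. Their part in the histone difference was not tested.

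With shUTX in CEM, 2 of 48 members stood at least 2-fold above shRenilla, beside 0.81% of 16791 genes, and 0 below it, beside 1.23%. The median log2 ratio was 0.24, beside 0.00 for all genes. HIST1H2BE was at 1.07 (0.71 to 1.47), HIST1H2AJ at 1.02 (0.64 to 1.44) and HIST1H4C at 0.88 (0.82 to 0.93). The lowest were HIST1H3A at -0.78 (-1.34 to -0.29), HIST1H3E at -0.53 (-0.96 to -0.13) and HIST1H2AC at -0.47 (-0.58 to -0.36). HIST1H2BE rested on 142 and 101 counts and HIST1H2AJ on 128 and 94.

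Between the hairpins in CEM, 17 of 46 members were at least 2-fold lower with shJMJD3 than with shUTX, beside 13% of 16229 genes, and 2 were higher, beside 11.6%. The median was -0.76, beside -0.03 for all genes, and on column totals each ratio would be 0.23 lower. HIST1H3F was lowest at -2.26 (-2.63 to -1.94), then HIST1H2AK at -2.02 (-3.44 to -1.19) and HIST1H3I at -1.98 (-2.28 to -1.72). HIST2H2BE was highest at 1.56 (1.39 to 1.75), then HIST1H2BJ at 1.02 (0.71 to 1.36) and HIST1H2BK at 0.55 (0.40 to 0.70). The shJMJD3 column is the same in both CEM comparisons.

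Genes that act on histone mRNA were followed as a list. Of 13 such factors, 1 was at least 2-fold higher with shJMJD3 in CEM and 0 lower, beside 11.3% and 14.1% of all genes. Their median log2 ratio there was 0.07. With shJMJD3 in CUTLL1, 0 were at least 2-fold higher and 0 lower, beside 3.68% and 2.33% of all genes. NPAT, the coactivator of histone gene transcription, was at -0.44 (-0.49 to -0.39) in CEM and 0.26 (0.23 to 0.28) in CUTLL1. SLBP, the stem-loop binding protein, was at 0.27 (0.23 to 0.31) and -0.14 (-0.17 to -0.12). POU2F1, the OCT1 factor that binds the octamer, was the one past 2-fold, at 1.06 in CEM. The 12 histone chaperones had medians of 0.28 in CEM and -0.07 in CUTLL1, with 0 past 2-fold in either, beside the same shares of all genes. In lists this short, 0 is near the CUTLL1 shares. No list was set against other genes by a test.

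S phase genes and some replacement histones differed in CEM as well. Of 24 S phase genes, 7 were at least 2-fold higher with shJMJD3 in CEM and 0 lower, beside 11.3% and 14.1% of all genes. Their median there was 0.43. In CUTLL1, 0 were at least 2-fold higher and 0 lower, beside 3.68% and 2.33% of all genes, and the median was 0.03. The cyclin gene CCNA2 stood at 346 CPM with shJMJD3 in CEM, 115 with shUTX and 117 with shRenilla, and RRM2, a subunit of ribonucleotide reductase, at 264, 82.6 and 102. H1F0, the linker histone of resting cells, had 140, 1458 and 1010 CPM in the same columns, a log2 ratio to shRenilla of -2.58 (-2.61 to -2.55). CENPA, the centromeric H3 histone, had 56.4, 13.3 and 12.0, a ratio of 2.50 (2.41 to 2.59). In CUTLL1 these were at 0.23 and 0.33.

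Across the lines, edgeR's quasi-likelihood test with the line as a block called 0 of 78 histone genes for shJMJD3 against shRenilla, 0 of 65 for shUTX against shRenilla and 0 of 78 for shJMJD3 against shUTX at a Benjamini-Hochberg adjusted p under 0.05. It called 0% of all genes in each, with 2 residual degrees of freedom. These come from how the hairpin differences vary between the lines, so differences of opposite sign in the 2 lines add to the spread. At an unadjusted p under 0.05 there were 3, 0 and 19 histone genes. Over all genes there were 936 of 24003, 39 of 23112 and 1945 of 24003. The 19 include HIST2H4A, HIST2H4B, HIST2H2AA3, HIST2H2AA4, HIST2H3A and HIST2H3C, which had 0 counts in every CEM column and in CUTLL1 shUTX. Their values rest on CUTLL1 alone and on how shared reads were counted, which the labels do not state. The 19 are therefore not an excess seen in both lines. With the other CUTLL1 control column in each fit there were 5, 17 and 5 histone genes, and again 0 were called. There the counts over all genes were 1399 of 23112, 811 of 24003 and 1448 of 23112. DESeq2 called 0, 0 and 1 histone genes, beside 110 of 20970, 2 of 39896 and 287 of 20970 genes. For shJMJD3 against shRenilla the 3 were HIST1H4F (log2 fold change 3.20, SE 0.34), HIST2H2BE (0.99, SE 0.26) and HIST1H4I (0.67, SE 0.24), each with an edgeR adjusted p of 0.80. SE here is the absolute log2 fold change divided by the square root of the test's F statistic. These 3 genes were chosen after their values were seen. HIST1H4F rests on CUTLL1 alone, since CEM had 0 counts, so its SE does not measure spread between the lines. HIST2H2BE was higher with shJMJD3 than with shRenilla in both lines, with log2 ratios of 1.18 in CEM and 0.72 (0.71 to 0.73) in CUTLL1. Against the remainder of the CUTLL1 control its difference was smaller, since its CUTLL1 levels were 554 CPM with shJMJD3, 371 in the larger column, 317 in the smaller and 440 in the remainder.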

How the data were processed

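The 6 deposited tables hold raw read counts per gene, made by the authors with 1 column per hairpin and line and replicates pooled, as the column totals show; each table sets 2 columns side by side. Per the submitters' processing notes, CASAVA and TopHat were used with hg19, without versions. No label or header states the counting rule, its use of strand or its handling of shared reads. The kit marks strand (dUTP), and reads were 50-base single reads, per the labels' protocols.

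Columns were scaled to their totals (CPM) and, for ratios, by TMM on each pair of columns with a prior count of 2. Genes with at least 50 counts in either column were considered, and 2-fold was the threshold of size. Intervals are exact binomial (Clopper-Pearson) at 95%, for counting error only, since PCR reads without molecular identifiers are not independent molecules. Across lines, edgeR 4.0.16 (limma 3.58.1, R 4.3.3) fitted 6 columns with the line as a block, which leaves 2 residual degrees of freedom. DESeq2 1.42.0 was an alternative. Other steps used Python 3.11.15, pandas 2.3.3, scipy 1.17.1 and matplotlib 3.10.9. The edgeR fit was tested on simulated counts, and the DESeq2 fit was not. Members were matched to GENCODE release 29 transcripts, 52 by stable ID and 37 by symbol, for stem-loops, coding sequences and 50-base words. All 89 matched RefSeq genes (GRCh38.p14), and 66 had a promoter.

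Genes were named by rule: in each class the 3 members with the highest mean CPM, in each comparison the 3 highest and 3 lowest ratios, and the polyadenylated list; others were named after their values were seen. The members and lists were chosen with earlier results of these data known. Alternatives were other count minimums, a prior count of 0.5, column totals, each part of the control, members with unique words, DESeq2 and no filter. The other lists were markers of T, B, myeloid, erythroid and fibroblast cells. The 3 erythroid genes summed to at most 0.457 CPM and the 3 fibroblast genes to at most 9.68 in the 7 columns.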

Additional observations from a re-analysis of the deposited data

Results flagged for a closer look

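The histone genes lay on opposite sides of 0 in the 2 lines with shJMJD3. Against shRenilla the median log2 ratio was 0.48 in CUTLL1 and -0.62 in CEM, a difference of 1.10. Against shUTX the medians were 0.35 and -0.76, a difference of 1.11. The difference between lines was not tested, because each line has 1 pooled column per hairpin, and both contrasts use the same shJMJD3 columns. In CUTLL1 the medians of the 2 contrasts were 0.42 and 0.16 with unique-word members, and 0.34 and 0.020 on column totals. In CEM the median against shUTX was -0.99 on column totals. The lines also differed by 179-fold in the histone share of their control columns, and cell line and RNA selection cannot be told apart.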

How the results depend on the processing

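No paired analysis was possible because the columns carry no replicate number. None of the medians within a line or between lines changed sign, but 36 of 480 single-gene values did. Of these, 5 ended past 2-fold, all for shUTX in CUTLL1: HIST1H2BE (1.69), HIST1H4F (1.66), HIST1H2BK (-1.23) and HIST1H4K (-9.53) against the remainder, and HIST1H4K (-8.04) against the larger column. The edgeR histone median for shJMJD3 against shUTX across lines went from 0.0195 to -0.190 on column totals. On column totals the medians became -0.89 for shJMJD3 against shRenilla in CEM, 0.34 in CUTLL1, 0.10 for shUTX in CUTLL1, 0.020 for shJMJD3 against shUTX in CUTLL1, -0.89 between the control parts and 8.13 between the lines. On totals the counts at least 2-fold higher became 0, 1 and 1 in the CEM comparisons with shRenilla (shJMJD3, shUTX) and between hairpins, and 34 were lower in the remainder. With 10 counts as the minimum, CEM shJMJD3 had 2 higher and CEM shUTX 1 lower. With 200, CEM shUTX had 0 higher and shJMJD3 against shUTX 11 lower. Against the remainder, the CUTLL1 medians were 0.92 (shJMJD3, 35 higher) and 0.49 (shUTX, 23 higher and 20 lower). Against the larger column shUTX had 0.21, with 18 lower. Counts past 2-fold over all genes were not made for these column pairs, on totals or with other minimums. The member counts given there do not set the histone genes apart. The line comparison gave 8.14 with the smaller column and 8.23 with the remainder. With unique-word members only, an alternative added after seeing the data, CUTLL1 shJMJD3 gave 0.42 with 10 higher, shJMJD3 against shUTX 0.16 with 7 higher, the control parts -0.67 with 5 higher, the lines 7.78, and CEM shUTX 1 higher. For shJMJD3 against shUTX across lines, DESeq2 called 1 of 76 histone genes, beside 287 of 20970 genes. There edgeR without a filter on low counts called 9 of 87, beside 55 of 40694 genes. With a prior count of 0.5, all 24 medians and counts stayed within counting error or 1.5-fold, and 173 single-gene values kept their side of 2-fold. The cause of these changes was not tested, except that the unique-word and count-minimum settings compare other genes. In CEM the depth limits single genes: 13389 histone counts with shJMJD3 leave intervals as wide as -3.42 to -1.24.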
